A study of Arabidopsis thaliana with 11 samples.

Results

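The genes that sense, store and distribute iron were followed in dark-grown hypocotyls, the embryonic stems of seedlings, of Arabidopsis thaliana. The set was chosen by locus: 35 loci entered as iron sensors, bHLH transcription factors, IMA peptides, ferritins, vacuolar and other metal transporters, nicotianamine synthases, proteins of long-distance iron transport and the reductase FRO3. All 35 of them were among the 32627 loci on the array, and the feature with the highest mean over all arrays stood for each locus. A feature is a set of probes for 1 transcript; 28 members rested on 4 probes and 7 on 3. The gene table used for names gives no symbol or synonym for AT1G74770 and AT1G18910, entered here as sensors, for AT1G47400, AT1G47395 and AT2G30766, entered as IMA peptides, or for AT3G43660, entered as a vacuolar iron transporter, and these loci are called by their identifiers.

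Total RNA came from seedlings of ecotype Columbia, either wild type (6 arrays, replicates 1 to 6) or a line labelled atpme3-1 and described as lacking PME3 function (5 arrays, replicates 1, 2, 3, 5 and 6). Both groups had been kept for 3 days at 4 °C in darkness, then for 6 h at 20 °C in white light and then for 4 days in darkness, and were taken at an age of 96 h. Each replicate was collected on its own and pooled about 300 hypocotyls, so single plants cannot be seen, and the mutant group is 1 line at 1 age. The comparison sets this line against wild type; PME3 is a pectin methylesterase of the cell wall.

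Plants keep free iron low because it is reactive. BTS, an iron-binding ubiquitin ligase, marks bHLH factors of the ILR3 group for breakdown. Under iron shortage these factors switch on further bHLH genes and through them uptake and transport, and small IMA peptides protect them from BTS. Surplus iron is held in ferritin, mostly in plastids, or in the vacuole, and nicotianamine and citrate carry it between cells and organs. A germinating seedling first lives on iron laid down in the vacuoles of the embryo.

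The PME3 signal itself was higher on the arrays labelled mutant. Its log2 intensity was 14.42, 14.44, 14.40, 14.40 and 14.39 there and lay between 13.69 and 13.86 in wild type, with a median of 13.82. The log2 fold change was 0.61 ± 0.040 (SE, limma adjusted p = 4.91e-07), and an exact two-sided permutation test gave p = 0.00216, the smallest that 462 splits allow. A probe outside the disrupted part of a gene checks nothing, and where the probes lie is not given in the sources used here. Every direction below therefore rests on the labels, and the arrays are called labelled mutant. All 8 markers of dark-grown seedlings had a mean signal above the median of all features. Of them 2 were lower on the labelled mutant arrays, PHYA (log2 fold change -0.17, limma adjusted p = 0.0395) and PIF4 (-0.46, adjusted p = 0.0482). The other 6 did not pass an adjusted p of 0.05, under which 13.1% of all loci were lower. The array medians lay between 3775.6 and 3909.2 intensity units. Within wild type, arrays whose numbers lie 3 apart deviated together from the group mean: over all features the deviations of arrays 2 and 5 correlated at 0.58, those of 3 and 6 at 0.69 and those of 1 and 4 at 0.18, while the other 12 wild-type pairs lay at 0.04 or below. In the labelled mutant group the corresponding pairs gave 0.07 and 0.03. The wild-type arrays may thus not be 6 independent samples, and p-values that count them so may be too small; with arrays 3 numbers apart averaged, 19.3% of loci were called.

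On the labelled mutant arrays the iron genes were mostly lower where they differed. With limma over all features and an adjusted p under 0.05, 14 of the 35 members fell and 2 rose, while 19 did not pass. Over all loci in this fit 13.1% fell and 19.4% rose, 32.5% in all. With arrays 3 numbers apart averaged, 13 members fell and 1 rose, beside 19.3% of all loci called in either direction. Without averaging, the fold was at least 1.5 for 9 of the fallen members and 1 of the risen ones. Of all loci 4.99% fell and 3.58% rose by as much, or 8.57% together. The groups did not overlap for 13 members, 12 lower and 1 higher, against 9.11% and 10.5% of loci, or 19.6% together. The median log2 fold change of the members was -0.15, beside 0.05 for all loci. The 2 risen members were both ferritins. In whole hypocotyls, fewer cells of a type and less RNA per cell cannot be told apart.

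**Figure D1:**
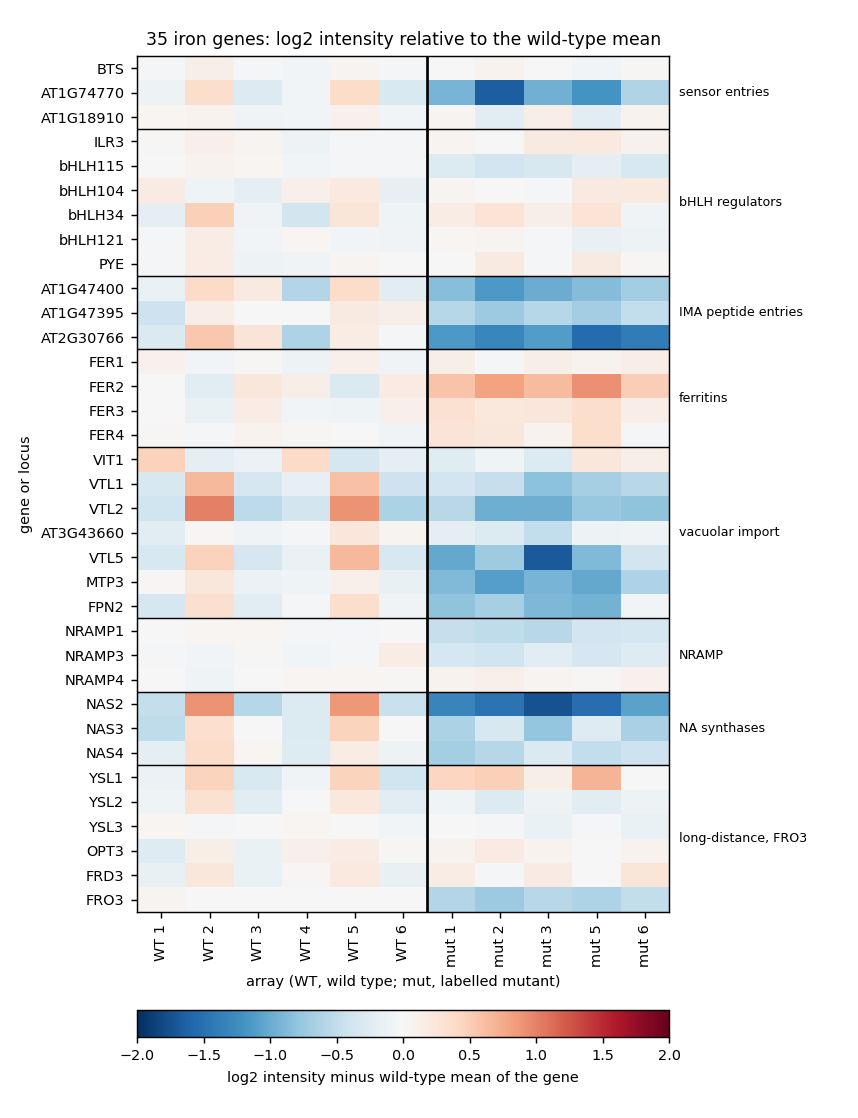
Log2 intensity of each of the 35 members on each array (columns; 6 wild type, then 5 labelled mutant), minus the wild-type mean of that gene; red is higher and blue is lower. Blue fills the IMA peptide and nicotianamine synthase (NA synthase) rows on the labelled mutant arrays, FER2 is red there, and wild type 2 and 5 stand out in red in the VTL1, VTL2 and NAS2 rows.

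Among the sensor entries 1 of 3 fell, against 13.1% of all loci. BTS ran from 14.00 through a median of 14.01 to 14.17 in wild type and read 14.04, 14.12, 14.05, 13.99 and 14.07 on the labelled mutant arrays (log2 intensity). The groups overlapped almost wholly, with a log2 fold change of 0.01 and a 95% interval from -0.09 to 0.10 (limma adjusted p = 0.935). AT1G74770 behaved differently: its signal ran from 12.19 through 12.41 to 12.86 in wild type and read 11.56, 10.85, 11.53, 11.30 and 11.89 on the labelled mutant arrays. Every labelled mutant array lay below every wild-type array, replicate 2 lowest and replicate 6 highest, and the log2 fold change was -1.06 ± 0.18 (SE, adjusted p = 0.00122), or 2.09-fold lower. The other sensor entry, AT1G18910, ran from 13.01 through 13.08 to 13.17 in wild type and read 13.14, 12.86, 13.20, 12.87 and 13.16 on the labelled mutant arrays. Its replicates 2 and 5 were below all wild-type arrays and the other 3 among or above them, and it did not pass (-0.04, interval -0.20 to 0.12).

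The bHLH regulators moved little. Of 6 members 1 fell, against 13.1% of all loci: bHLH115, an activator of the iron deficiency response. It ran from 14.12 through 14.18 to 14.25 in wild type against 13.91, 13.80, 13.86, 14.00 and 13.87 on the labelled mutant arrays, with no overlap and a log2 fold change of -0.30 ± 0.045 (adjusted p = 0.000472). Its relatives did not pass. ILR3 had a mean log2 intensity of 13.61 in wild type and 13.71 on the labelled mutant arrays (difference 0.10, 95% interval -0.01 to 0.22). The means of bHLH104 were 11.36 and 11.44 (0.08, interval -0.10 to 0.26), and those of bHLH34 were 12.34 and 12.48 (0.15, interval -0.15 to 0.44). All 3 differences were thus under 1.5-fold at either end of their intervals. The same held for bHLH121, a partner of these factors, with means of 13.50 and 13.46 (-0.04, interval -0.16 to 0.08), and for PYE, a repressor of iron distribution genes, with means of 13.11 and 13.18 (0.07, interval -0.06 to 0.20). A second feature each of bHLH104 (0.02) and bHLH121 (-0.06) gave values of similar size.

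All 3 loci entered as IMA peptides fell, without overlap between the groups, where 13.1% of all loci fell and 9.11% were lower without overlap. AT2G30766 ran from 9.50 through 10.16 to 10.65 in wild type and read 8.96, 8.80, 9.00, 8.58 and 8.71 on the labelled mutant arrays. This was a log2 fold change of -1.30 ± 0.18, or 2.46-fold lower (adjusted p = 0.00022), and the 5 labelled mutant arrays lay closer together than the 6 of wild type. AT1G47400 ran from 10.06 through 10.67 to 11.03 in wild type against 9.80, 9.50, 9.65, 9.77 and 9.96, a log2 fold change of -0.91 ± 0.17 (adjusted p = 0.00167). Its highest labelled mutant array, replicate 6, lay just below the lowest wild-type array. AT1G47395, the next gene to AT1G47400 in the gene table, ran from 11.94 through 12.42 to 12.53 against 11.78, 11.62, 11.79, 11.65 and 11.86, a log2 fold change of -0.62 ± 0.099 (adjusted p = 0.00072). Wild type 1 was the lowest wild-type array for this locus and lay nearer to the labelled mutant arrays than to the other 5.

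Of the 4 ferritins, iron stores of the plastid, 2 rose and 0 fell, against 19.4% and 13.1% of all loci. FER2, the form known from seeds, ran from 10.95 through 11.30 to 11.48 in wild type and read 11.81, 12.05, 11.88, 12.16 and 11.75 on the labelled mutant arrays. The groups did not overlap, and the log2 fold change was 0.68 ± 0.11, or 1.60-fold (adjusted p = 0.000682). FER3 ran from 13.82 through 13.92 to 14.10 against 14.25, 14.16, 14.17, 14.30 and 14.08, where only replicate 6 fell within the wild-type range; it rose by 0.25 ± 0.062 (adjusted p = 0.0104). That call ended when arrays 3 numbers apart were averaged (adjusted p = 0.0615). FER4 ran from 13.55 through 13.64 to 13.70 against 13.88, 13.86, 13.69, 13.99 and 13.58. Its replicates 3 and 6 lay within the wild-type range and the other 3 above it. The log2 difference of 0.17 ± 0.069 did not pass (adjusted p = 0.0737), but did without labelled mutant 6 (0.23, adjusted p = 0.0143). With all arrays kept, FER4 passed with arrays centred on their median (limma adjusted p = 0.0472), with a trended, robust variance model (0.0489) and with array weights. FER1, the ferritin best known for its response to excess iron, ran from 14.00 through 14.09 to 14.21 against 14.21, 14.06, 14.22, 14.17 and 14.23, with a log2 difference of 0.08 and an interval from -0.04 to 0.19. Its groups overlapped.

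Maturing-seed markers moved beside the ferritins. Of 10 such markers 9 rose and 0 fell, led at the lowest p by GEA6 (also called EM6; 2.48 ± 0.15, adjusted p = 1.99e-07), and 7 did so without overlap. Of all loci 19.4% rose and 13.1% fell, and 10.5% were higher without overlap. The summed intensity of the 10 markers lay between 61756 and 85542 units in wild type and between 131539 and 163117 on the labelled mutant arrays, and none was at 0. In wild type the sum was lowest on arrays 2 and 5, which also gave the 2 lowest FER2 values, 11.04 and 10.95. The labelled mutant group went the other way. There the sum was highest on replicate 6, which gave the lowest FER2 value, 11.75, and lowest on replicate 2, where FER2 read 12.05. The part of the seed markers in the FER2 and FER3 results was not tested.

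Genes of metal transport into the vacuole went down or did not pass: 3 of 7 fell and 0 rose, against 13.1% and 19.4% of all loci. MTP3, which carries zinc into the vacuole and is known from iron-deficient roots, ran from 12.31 through 12.43 to 12.69 in wild type and read 11.57, 11.36, 11.53, 11.44 and 11.84 on the labelled mutant arrays. Each labelled mutant array was below each wild-type array (-0.91 ± 0.093, adjusted p = 2.3e-05), and its second feature gave the same size of fall, -0.91 ± 0.11. FPN2 (also called IREG2), a metal exporter into the root vacuole, ran from 12.73 through 13.00 to 13.40 against 12.25, 12.40, 12.16, 12.11 and 13.00. Its replicate 6 lay in the middle of the wild-type range while the other 4 lay below it; the log2 fold change was -0.67 ± 0.17 (adjusted p = 0.0125), and without wild-type arrays 2 and 5 it was -0.50 (adjusted p = 0.0518).

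VTL1, VTL2 and VTL5, vacuolar iron transporter-like genes, spread widely among the wild-type arrays. VTL5 ran from 12.18 through 12.28 to 13.16 in wild type and read 11.48, 11.80, 10.82, 11.63 and 12.13 on the labelled mutant arrays, a fall of -0.93 ± 0.25 (adjusted p = 0.0145) without overlap. The gap between the groups was small, since labelled mutant 6 came close to the lowest wild-type array. VTL1 ran from 11.52 through 11.69 to 12.58 against 11.55, 11.48, 11.10, 11.26 and 11.38 (-0.58 ± 0.21, adjusted p = 0.0514). VTL2 ran from 8.84 through 9.08 to 10.47 against 8.90, 8.49, 8.48, 8.71 and 8.66 (-0.82 ± 0.31, adjusted p = 0.0600). Both overlapped and did not pass, although their differences were of 1.49-fold and 1.76-fold. For VTL2, wild type 2 and 5 read 10.47 and 10.36 and the other 4 wild-type arrays 9.10 or less; for VTL1 the same pair read 12.58 and 12.52 and the others 11.76 or less. Without that pair the log2 difference was -0.27 for VTL1 (adjusted p = 0.0612) and -0.34 for VTL2, which then passed (adjusted p = 0.0275). VTL1 passed without wild type 1 (adjusted p = 0.0472), 3 (0.0425) or 6 (0.0330), and VTL2 without wild type 3 (0.0474) or 6 (0.0371). With all arrays kept, VTL1 also passed with arrays centred on their 75th percentile (limma adjusted p = 0.0487). The same held with a trended, robust variance model (0.0410) and with array weights. VIT1, the transporter that loads iron into embryo vacuoles, had means of 9.93 and 9.88 and did not pass (-0.05, interval -0.39 to 0.29). AT3G43660 had means of 9.12 and 8.89 (-0.22 ± 0.089, adjusted p = 0.0770) and passed without wild type 1 (adjusted p = 0.0442). VTL2 and AT3G43660 lay in the dimmest 25% of features, where background signal can make folds smaller, which was not tested.

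**Figure D2:**
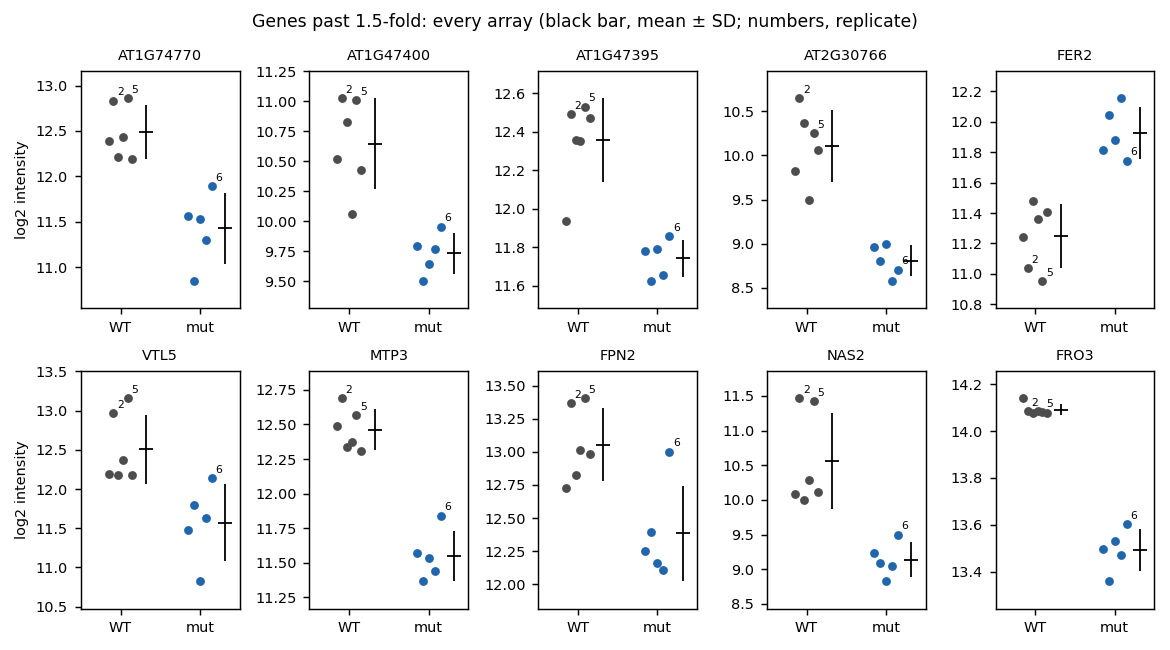
Log2 intensity on every array for the 10 members past 1.5-fold (grey points, 6 wild-type arrays; blue points, 5 labelled mutant arrays; black bars, mean ± SD; small numbers, wild type 2 and 5 and labelled mutant 6). The groups overlap only for FPN2, through labelled mutant 6, and wild type 2 and 5 are the 2 highest wild-type arrays for AT1G74770, AT1G47400, AT1G47395, VTL5, MTP3, FPN2 and NAS2.

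Of the NRAMP metal transporters 2 of 3 fell, both by less than 1.5-fold and both without overlap. Of all loci 13.1% fell and 9.11% were lower without overlap. NRAMP1, which takes up manganese and iron, ran from 13.95 through 13.98 to 14.02 in wild type and read 13.52, 13.47, 13.43, 13.60 and 13.63 on the labelled mutant arrays. Wild-type arrays were tightly grouped (SD 0.028), and the log2 fold change was -0.45 ± 0.044 (adjusted p = 1.6e-05). NRAMP3 and NRAMP4 both release iron from the vacuole of the germinating seedling, yet only the first fell. NRAMP3 ran from 13.43 through 13.45 to 13.64 against 13.14, 13.10, 13.27, 13.15 and 13.23 (-0.31 ± 0.051, adjusted p = 0.000862). NRAMP4 ran from 13.56 through 13.65 to 13.68 against 13.72, 13.74, 13.70, 13.67 and 13.74 (0.07, interval -0.01 to 0.15, adjusted p = 0.171), with 4 of 5 labelled mutant arrays above all of wild type. A difference between the changes of these 2 genes was not tested.

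All 3 nicotianamine synthases among the members fell, against 13.1% of all loci. Their product chelates iron for movement between cells. NAS2 had the largest fold of all 35 members in the main fit. It ran from 9.998 through 10.21 to 11.47 in wild type and read 9.24, 9.09, 8.82, 9.05 and 9.50 on the labelled mutant arrays, a log2 fold change of -1.42 ± 0.29, or 2.68-fold lower (adjusted p = 0.00349). Wild type 2 and 5 read 11.47 and 11.42 and the other 4 wild-type arrays 10.29 or less. Without the pair the fall of NAS2 was smaller in size and lower in p (-0.98, adjusted p = 0.000327). It was then not the largest, since AT2G30766 lay at -1.13 or lower under every alternative that gave a value. NAS4 ran from 11.88 through 12.10 to 12.50 against 11.45, 11.56, 11.85, 11.64 and 11.72 (-0.49 ± 0.11, adjusted p = 0.00625), without overlap. NAS3 ran from 9.89 through 10.39 to 10.83 against 9.76, 10.07, 9.62, 10.13 and 9.74, and its groups overlapped. Its fall of -0.53 ± 0.17 (adjusted p = 0.0306) was lost in 5 of the 11 fits that left out 1 array, those without wild type 2 (0.0597) or 5 (0.0561) or labelled mutant 1 (0.0699), 3 (0.0742) or 6 (0.0593). The call was lost in 9 of 23 alternatives in all, among them that with arrays 3 numbers apart averaged (0.118) and that without wild type 2 and 5 together, when the log2 difference was -0.33 (0.102).

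FRO3, a ferric reductase of mitochondria, fell, while 0 of 5 genes of long-distance transport passed. FRO3 ran from 14.08 through 14.08 to 14.14 in wild type and read 13.50, 13.36, 13.53, 13.47 and 13.60 on the labelled mutant arrays. It had the lowest p of the members (-0.60 ± 0.045, adjusted p = 1.76e-06), and its groups lay far apart. OPT3, the carrier that loads iron into the phloem, ran from 14.03 through 14.34 to 14.42 against 14.35, 14.44, 14.36, 14.29 and 14.35, within the same range except for replicate 2 (0.08, interval -0.08 to 0.24). FRD3, which releases citrate into the xylem, had means of 13.44 and 13.55 and did not pass either (0.10, interval -0.08 to 0.29), nor did its second, dimmer feature (0.34 ± 0.18, adjusted p = 0.166).

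Of the YSL carriers of metal and nicotianamine 0 of 3 passed. YSL2 had means of 13.08 and 12.93 (-0.15, interval -0.37 to 0.06) and YSL3 of 13.42 and 13.35 (-0.07, interval -0.16 to 0.02). YSL1 ran from 11.95 through 12.25 to 12.80 in wild type and read 12.77, 12.83, 12.47, 13.03 and 12.36 on the labelled mutant arrays. Its log2 difference was 0.34 ± 0.18 (adjusted p = 0.162). Wild type 2 and 5 were again the highest of wild type, at 12.80 and 12.79, and without them YSL1 passed towards higher values (0.57, adjusted p = 0.0143), as did bHLH34 (0.33, adjusted p = 0.0237).

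**Figure D3:**
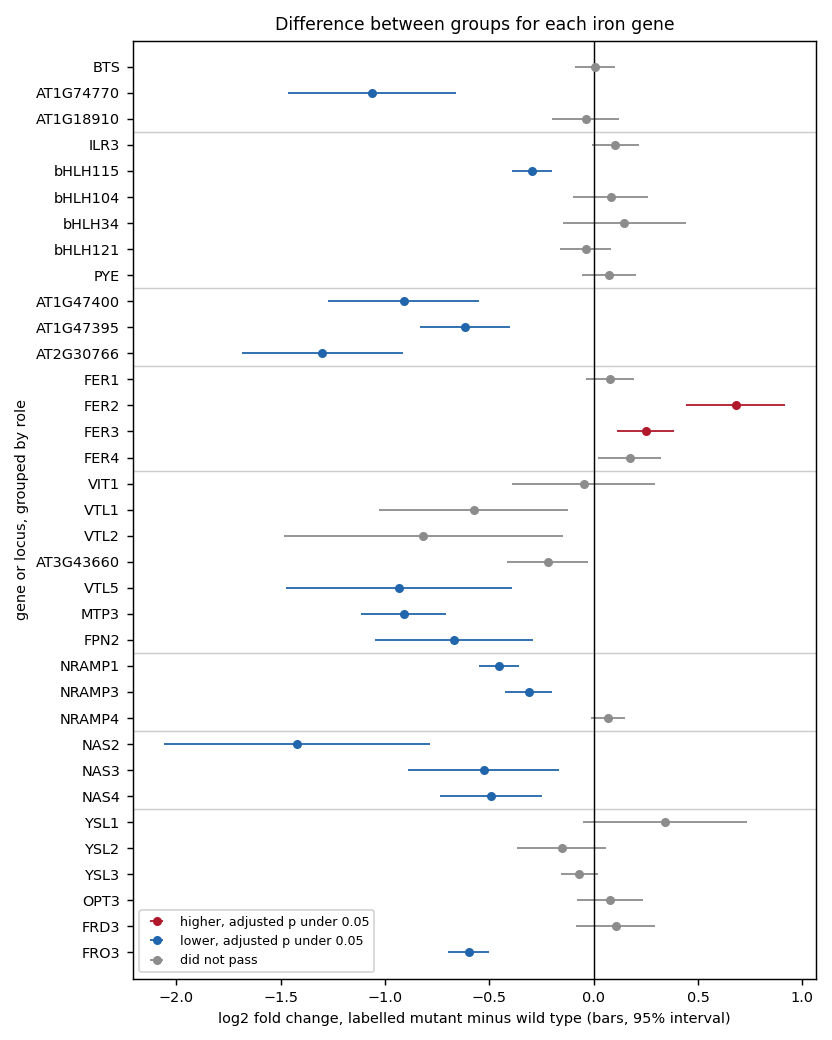
Log2 fold change of each member, labelled mutant minus wild type, with its 95% interval from limma, grouped by role from the sensor entries (top) to long-distance transport and FRO3 (bottom). Blue marks the 14 that fell, red the 2 that rose (FER2 and FER3) and grey the 19 that did not pass; the intervals of BTS, bHLH121, PYE and OPT3 are short and include 0.

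Variation within the groups followed a pattern of its own. Wild type 2 and 5 were the 2 highest wild-type arrays for 19 of the 35 members, or 54.3%, against 11.8% of all loci. The 19 included BTS, PYE and OPT3, which did not pass between the groups, beside VTL1, VTL2, VTL5, NAS2, NAS3, NAS4, YSL1 and YSL2. Among the 14 fallen members labelled mutant 6 was the highest labelled mutant array for 9, or 64.3%, against 40.8% of all loci that fell. Within wild type the SD was largest for VTL2 (0.74), NAS2 (0.69) and VTL1 (0.49) and smallest for FRO3 and NRAMP1, beside a median of 0.12 over all loci. The arrays without wild type 2 and 5 gave 13 fallen and 4 risen members. The share of all loci called in that fit is not given here, so these counts have no background beside them.

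Root hair markers moved with the fallen members, while the other root markers were mixed. Of 9 root and root hair markers 6 fell and 1 rose, against 13.1% and 19.4% of all loci. All 5 root hair genes fell, but the root markers PHT1.1 (-0.06) and CASP4 (0.06) did not pass. The nitrate transporter gene NRT2.1 (-1.34 ± 0.12, adjusted p = 7.49e-06) and the root hair regulator RSL4 (-2.25 ± 0.24) had the lowest p among the falls, and the endodermal gene CASP1 rose (0.18 ± 0.044). The summed intensity of the 9 lay between 107384 and 134387 units in wild type and between 64854 and 90867 on the labelled mutant arrays, with none at 0. Of the 9 markers 6 had a mean above the median of all features, although the samples are labelled hypocotyls. The 5 root hair genes among them summed to between 37031 and 64626 units in wild type and between 5184 and 23416 on the labelled mutant arrays. The sum over the 9 was highest on wild type 2 and 5 within wild type (128703 and 134387) and on replicate 6 within the labelled mutant group. The part of these markers in the falls of the iron genes was not tested. Markers of vascular tissue, where YSL, OPT3 and FRD3 genes act, passed in 0 of 6 cases, with summed intensities of 75508 to 85210 and 79252 to 84464 units. Of 9 markers of green cotyledon tissue 2 rose, RBCS1B (0.44) and LHCB4.1 (0.20), and 0 fell, against 19.4% and 13.1% of all loci. The sums of the green markers overlapped (146583 to 168166 and 148597 to 155981 units). Within wild type the green sum, like the root sum, was highest on arrays 2 and 5 (157376 and 168166). The vascular sum was highest on wild type 4 and 5 (83340 and 85210).

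Other iron genes were set beside the members. Of 16 genes of iron uptake from the soil, of the bHLH factors that switch them on and of coumarins that mobilise iron, 14 fell and none rose. By the same rule 13.1% of all loci fell and 19.4% rose. The median log2 fold change of the list was -1.20, and the groups did not overlap for 13, against 19.6% of all loci. At the lowest p were CYP82C4, a cytochrome P450 of coumarin synthesis (-3.24 ± 0.23, adjusted p = 9.31e-07), the regulator bHLH100 (-2.23 ± 0.25) and the metal transporter IRT2 (-2.31 ± 0.27). The second, dimmer feature of IRT2 fell by less (-0.34 ± 0.091), and the mean of both gave -1.32 ± 0.17; the second feature of bHLH100 gave -2.25 ± 0.24. The proton pump AHA2 (-0.13) and MYB10 (-0.03) did not pass. A difference between this list and the members was not tested.

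Of 22 further genes of iron handling 4 fell and 2 rose, against 13.1% and 19.4% of all loci. The median log2 fold change of the 22 was -0.00055. NAS1, another nicotianamine synthase, fell from 13.01 ± 0.15 (SD, n = 6) to 10.72 ± 0.48 (SD, n = 5), a log2 fold change of -2.29 ± 0.18 (adjusted p = 2.95e-06). LPR1 (-0.42 ± 0.11), a multicopper oxidase gene next to FRO3 in the gene table, AT3G58060 (-0.56 ± 0.18) and bHLH11 (-0.50 ± 0.16) fell too, bHLH11 by -0.84 ± 0.16 on its second feature. The call of LPR1 was lost when arrays 3 numbers apart were averaged (adjusted p = 0.115). That of AT3G58060 was lost without wild type 2 (0.0637) or 5 (0.0644) or labelled mutant 2 (0.0711) or 5 (0.0758). YSL7 (0.67 ± 0.060) and LPR2 (0.34 ± 0.049) rose. Of 10 genes of iron-sulphur cluster assembly, which use iron in plastids and mitochondria, the desulphurase gene NFS1 rose (0.21 ± 0.042) and the scaffold gene ISU1 fell (-0.28 ± 0.044), both mitochondrial, and the median was 0.06.

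**Figure D4:**
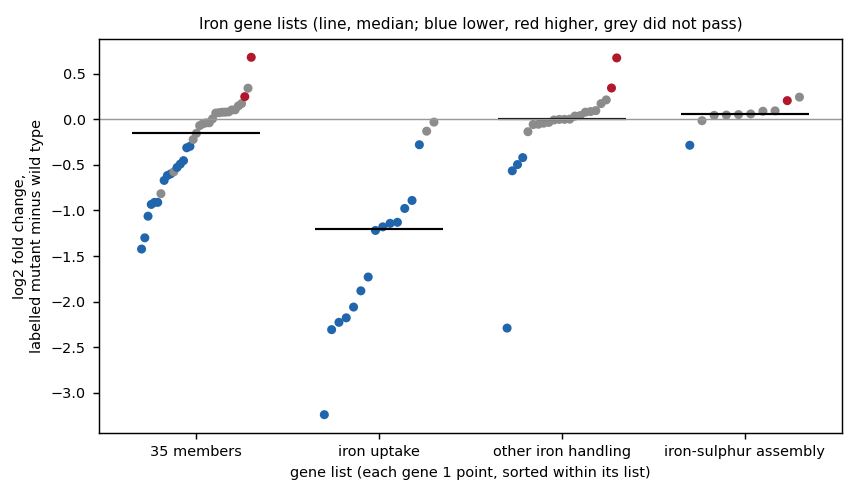
Log2 fold change, labelled mutant minus wild type, of each gene (points) in the member set, the iron uptake list, the list of other iron handling genes and the iron-sulphur assembly list, sorted within each list, with the median as a line (blue, fell; red, rose; grey, did not pass). The medians are -0.15, -1.20, -0.00055 and 0.06, and CYP82C4 at -3.24 is the lowest point.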

How the data were processed

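Total RNA of 11 samples was labelled with Cy3 and hybridised to a 12-plex chip, per the labels. For each feature and array the authors deposited 1 linear intensity. The submitters' processing notes name RMA, with no version, settings or annotation in the sources used here. RMA as generally run equalises array distributions, so changes in total RNA are not seen. The number of arrays limits the precision. The deposited intensity values in the joint table equalled those of the single-array files (largest difference 0). Per-sample columns of other samples numbered 0, and labelled mutant replicate 4 was not analysed here.

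The intensities were put on a log2 scale and all 37118 features were fitted together in R 4.3.3 with limma 3.58.1 (lmFit and eBayes), without a filter or covariate. P-values were adjusted over all features by the Benjamini-Hochberg method at a threshold of 0.05. The fit was tested on simulated data in which the arrays varied independently, so the shared deviations of wild-type arrays were not covered. All 35 members were found in a table of RefSeq genes (assembly TAIR10.1), the source of names and neighbours. No probe or gene sequence was used, so signal shared between gene copies (FER, NAS, VTL and the IMA entries) was not checked.

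The members and lists were chosen with earlier results of these data known. Values on every labelled mutant array are given for each member past 1.5-fold and for all ferritins, IMA entries and sensor entries. For wild type the lowest, median and highest values are given. Of each list up to 3 risen and 3 fallen genes of lowest p were named, and up to 2 each way of the markers. Array values of other members, the genes of a list that did not pass and bHLH11 were added after their values were seen. The alternatives concerned scaling, dim features, several features per locus, the variance model, array weights, the replicate number, the test, the threshold and left-out arrays.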

Additional observations from a re-analysis of the deposited data

Results flagged for a closer look

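In 3 of the 70 groups of arrays examined (35 genes, each in wild type and labelled mutant), 1 array lay far from the rest of its group; chance gives about 1 in 20. AT1G47395 read 11.94 on wild type 1 and between 12.35 and 12.53 on the other wild-type arrays. NRAMP4 read 13.56 on wild type 2, against 13.64 to 13.68. FRO3 read 14.14 on wild type 1, against 14.08 to 14.09. The fall of AT1G47395 and that of FRO3 passed in every fit that left out 1 array, and NRAMP4 passed in none.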

How the results depend on the processing

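Over 24 alternatives the 14 fallen members came to 10 to 16, and 12 of the 16 called members kept their call under each alternative that gave a value; no called member changed direction. FER3, FPN2, NAS3 and VTL5 lost theirs at least once, VTL5 solely at a threshold of 0.01. Of the 19 others, 6 passed at least once. With the dimmest 50% of features left out, which kept 25 members, 1 member rose, 6 were past 1.5-fold and 8 other iron genes fell (19 in the main fit). Members that rose numbered 1 with arrays 3 numbers apart averaged, 1 at a threshold of 0.01 and 4 without wild-type arrays 2 and 5, when 5 other iron genes rose (3 in the main fit). Leaving out 1 array gave 2 to 3 risen and 13 to 16 fallen members, 9 to 12 past 1.5-fold, and 3 to 4 risen and 17 to 19 fallen other iron genes. With the replicate number as a block, 2 members rose, 14 fell and 5 other iron genes rose; FER3 lost its call and YSL1 (0.33) gained one. The numbers give no pairing: deviations of same-numbered arrays correlated at -0.06 to 0.29, and 2 of 10 arrays were closest to their own number. PME3 stayed higher (0.58 to 0.62). The causes of these shifts were not tested, apart from the fewer genes or arrays that a setting leaves. Dim signal may limit VTL2 and AT3G43660.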
